A study of Mus musculus with 15 samples.

Results

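Genes of 15 families of developmental transcription factors were followed across the 5 groups of a mouse study of Notch1 overexpression in uterine epithelium. Members were taken by name from the tables of the Ctrl and E-OEX groups. The families are Hox, Fox, Sox, Gata, Tbx, Pax, Klf, Nr2f, Msx, Hand, Meis, Lhx, Irx, Emx and that of Six4, and Foxa2, Sox9, Sox17, Msx1 and Foxm1 were left aside. The rule found 84 members among the 8384 genes in those tables: 20 Hox, 16 Fox, 13 Sox, 11 Klf, 8 Tbx, 4 Gata, 3 Irx, 2 Lhx, 2 Pax, no Emx and 1 of each other family. Of these, 58 were in the Ctrl tables, 62 in the E-OEX tables, 36 in both, and 80 in the U-OEx tables. In all, 7 of the names (Foxd2os, Foxl2os, Hoxa11os, Sox1ot, Sox2ot, Sox5os1 and Tbx3os1) belong to RNAs that lie opposite, across or beside the gene they are named after. Foxd2os lies beside Foxd2 on the other strand and does not overlap it. The members share names and DNA-binding families, and no pathway was used to choose them.

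RNA was sequenced on day 4 from the epithelium facing the uterine cavity (luminal, LE) and from that of the glands below (glandular, GE). The groups were Ctrl-LE and Ctrl-GE from wild-type mice, E-OEX-LE and E-OEX-GE, and U-OEx-LE, with 3 libraries each. Both E-OEX and U-OEx carry the genotype label of Notch1 overexpression. What E and U stand for, the promoter or Cre that drives Notch1, and whether animals were pooled are not given in the sources used here. Nothing in them says that libraries came from separate animals, so p-values measure only the spread between libraries. Each library's reads per gene had been divided by a constant of that library. The resulting values are called scaled counts here, and 1 read was worth 0.865 to 1.15 of them. The 15 libraries held between 1980800 and 14981505 reads in the listed genes, but the Ctrl and E-OEX tables hold only selected genes, so their sums are not sequencing depths.

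Notch1 itself was in the U-OEx tables only, at 2913, 3524 and 2789 scaled counts in libraries 1, 2 and 3, so the targeted gene could not be compared between genotypes. Hey1, a direct target gene of Notch, was higher by a log2 change of 3.83 ± 0.62 (adjusted p = 0.00646) in E-OEX-LE, 2.59 ± 0.26 (adjusted p = 0.000144) in E-OEX-GE and 3.65 ± 0.52 (adjusted p = 0.000599) in U-OEx-LE than in the matching Ctrl group. The tissue labels were set against marker genes. The 6 listed glandular markers summed to 45.6, 94.2 and 68.2 scaled counts in the Ctrl-LE libraries and to 27253, 21965 and 30111 in Ctrl-GE, and to 4405, 5969 and 5195 in E-OEX-GE. Their sums were 1010, 200 and 111 in E-OEX-LE and 1389, 1011 and 1331 in U-OEx-LE, all above those of Ctrl-LE. Stromal markers (11 of 14, leaving out Postn after its values were seen) summed to 55788, 110154 and 38940.1 in Ctrl-GE and 87425, 98176 and 92893 in E-OEX-GE, against 453, 8195 and 2651 in Ctrl-LE, 2185, 957 and 481 in E-OEX-LE and 1045, 702 and 1938 in U-OEx-LE. These 11 stromal transcripts were thus far higher in the glandular than in the luminal libraries, and Ctrl-LE library 2 held more of them than the other luminal libraries. That order among the lumens did not hold with Postn, where the sums were 12273, 21535 and 7965 in U-OEx-LE and 453, 8216 and 2667 in Ctrl-LE. In bulk RNA, fewer cells of a type and less RNA per cell cannot be told apart.

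Hox proteins are homeodomain factors encoded in separate clusters, and the order of the genes along a cluster mirrors where they act along the body axis. In the female tract the genes at the 5′ end of the clusters pattern the Müllerian duct, and Hoxa10 and Hoxa11 are needed later for implantation and for the response of the uterine stroma to the embryo. Forkhead (Fox), Sox, T-box (Tbx) and Gata factors set and keep cell identities in many organs, Klf zinc-finger factors modify steroid hormone responses in the uterus, and Hand2 is a progesterone-induced factor of uterine stroma that restrains fibroblast growth factor signalling to the epithelium. Activated Notch enters the nucleus and works through the DNA-binding protein Rbpj.

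Foxq1 rose and Hoxa10 fell in the lumen of both overexpression groups. The RefSeq promoter window of Hoxa10 (250 bases before to 50 after a transcription start, GRCm38.p6) was therefore read for TGGGAA or its reverse complement TTCCCA, the core bound by Rbpj. The 2 Hoxa10 windows, at its annotated starts, held neither. Foxq1 is not in the table of windows. For comparison, windows of Irx3, Meis1 and Six4 (1 of 2, neither with the core), which rose in U-OEx-LE, are shown, chosen after their values were seen, with any core in capitals.

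Hoxa10, chr6:52240805-52241104, minus strand: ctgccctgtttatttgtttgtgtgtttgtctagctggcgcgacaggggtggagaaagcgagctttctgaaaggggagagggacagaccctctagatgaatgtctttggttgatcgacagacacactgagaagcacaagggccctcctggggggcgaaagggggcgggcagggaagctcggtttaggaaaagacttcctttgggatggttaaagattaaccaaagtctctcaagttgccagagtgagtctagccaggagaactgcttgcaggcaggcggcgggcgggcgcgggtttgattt
Hoxa10, chr6:52234890-52235189, minus strand: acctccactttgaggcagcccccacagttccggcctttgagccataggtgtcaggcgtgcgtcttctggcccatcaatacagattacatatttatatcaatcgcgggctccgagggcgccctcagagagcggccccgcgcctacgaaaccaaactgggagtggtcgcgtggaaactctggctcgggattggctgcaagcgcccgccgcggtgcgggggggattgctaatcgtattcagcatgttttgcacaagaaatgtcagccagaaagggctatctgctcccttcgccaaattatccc
Irx3, chr8:91801605-91801904, minus strand: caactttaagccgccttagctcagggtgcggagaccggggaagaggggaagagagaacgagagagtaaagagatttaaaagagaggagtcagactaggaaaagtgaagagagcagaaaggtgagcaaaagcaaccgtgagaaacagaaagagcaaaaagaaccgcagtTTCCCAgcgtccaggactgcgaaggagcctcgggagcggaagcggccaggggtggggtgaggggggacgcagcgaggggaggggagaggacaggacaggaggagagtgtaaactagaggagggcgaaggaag
Meis1, chr11:19018920-19019219, minus strand: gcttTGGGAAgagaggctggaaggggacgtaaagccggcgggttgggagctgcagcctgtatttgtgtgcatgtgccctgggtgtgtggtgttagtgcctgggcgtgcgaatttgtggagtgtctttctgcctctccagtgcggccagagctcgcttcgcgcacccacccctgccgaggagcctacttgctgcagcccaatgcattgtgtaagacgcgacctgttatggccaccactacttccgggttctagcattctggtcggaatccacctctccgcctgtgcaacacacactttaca
Six4, chr12:73113196-73113495, minus strand: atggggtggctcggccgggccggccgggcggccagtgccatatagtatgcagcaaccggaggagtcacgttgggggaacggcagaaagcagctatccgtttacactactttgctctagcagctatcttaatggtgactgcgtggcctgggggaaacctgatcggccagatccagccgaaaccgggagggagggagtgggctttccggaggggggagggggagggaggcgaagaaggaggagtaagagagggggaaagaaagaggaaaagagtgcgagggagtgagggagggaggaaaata

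The core began 82 bases before the RefSeq start of Irx3 and 246 before that of Meis1. The whole Irx3 window lies inside the GENCODE locus of Irx3 (chr8:91798525-91802067), so by that annotation its core is within the gene. It was in 14 of the 77 windows found for 62 members (18.2%), and in 8397 of all 32851 windows of the same 300 bases (25.6%). Such a match is a description of letters and not a binding site.

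Most members, like most listed genes, had more reads in the glandular than in the luminal libraries, where stromal markers were higher as well. Of the 58 members in the Ctrl tables, 38 (65.5%) were higher in Ctrl-GE and 20 in Ctrl-LE, with a median log2 difference (GE minus LE) of 2.27. In E-OEX, 57 of 62 members (91.9%) were higher in GE and 5 in LE, with a median of 3.28. These gene lists hold genes that differ at least 2-fold between GE and LE, so the contrast chose the genes and is described without a test. For all listed genes, 57% were higher in GE in the Ctrl tables and 63.9% in the E-OEX tables, and nothing is read from the members' shares against them.

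**Figure D1:**
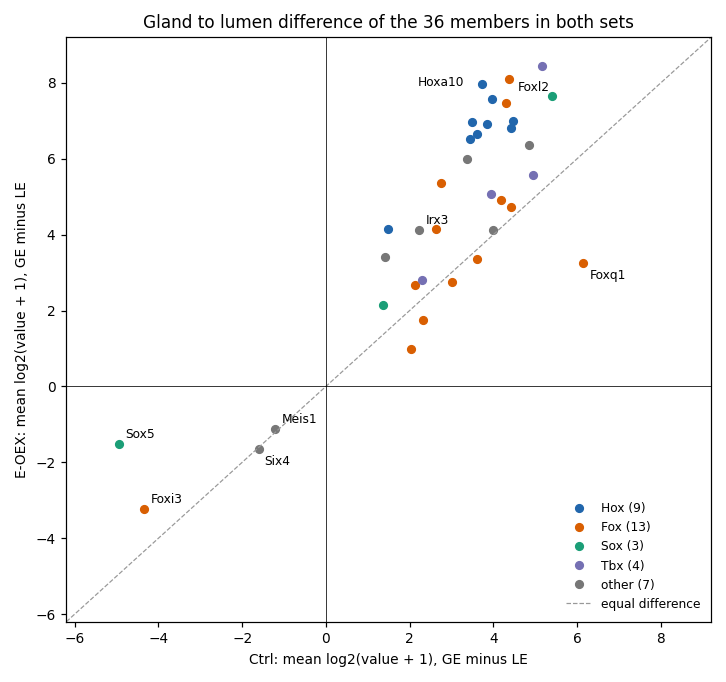
Difference between glandular and luminal epithelium (log2 of scaled count + 1, GE minus LE) of the 36 members in both sets of tables, with Ctrl on the x axis and E-OEX on the y axis, 1 point per gene. All 36 have the same sign in both genotypes, and 28 lie farther from 0 in E-OEX.

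The 36 members in both sets kept their direction, 32 higher in GE and 4 (Foxi3, Meis1, Six4 and Sox5) higher in LE, and the difference was larger in E-OEX for 28 (77.8%), as the plot of gland against lumen shows. Of all 2933 genes in both sets, 96.4% had the same direction and 46.8% a larger difference in E-OEX. The stromal marker sums given above were also farther apart between GE and LE in E-OEX than in Ctrl, and their part in this was not tested. Hoxa10 was 10.6-fold higher in Ctrl-GE than in Ctrl-LE and 289-fold higher in E-OEX-GE than in E-OEX-LE. Tbx3, a T-box repressor, went from 18.6-fold to 487-fold, and Foxl2, best known as the forkhead factor of ovarian granulosa cells, from 13.6-fold to at least 288-fold. Foxq1 went the other way, from 87.9-fold to 8.14-fold. Few luminal reads stood behind some of these folds, which are imprecise. In E-OEX-LE, Hoxa10 had 14 reads, Tbx3 had 5 and Foxl2 had 0, and in Ctrl-LE Foxq1 had 7. Among genes higher in the lumen, the SoxD factor Sox5 was 31.5-fold higher in Ctrl-LE and 3.49-fold higher in E-OEX-LE. Six4 and Meis1 held nearly the same excess in LE, 3.09-fold and 3.11-fold for Six4, and 2.32-fold and 2.28-fold for Meis1.

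The families differed in these counts. In Ctrl, 9 of 12 Hox, 12 of 14 Fox, 5 of 5 Tbx and 4 of 6 Klf members were higher in GE, whereas 7 of 10 Sox members and both Gata and both Pax members were higher in LE, although Gata5 and Pax9 overlapped between the compartments. In E-OEX, with other genes listed, 17 of 17 Hox, 14 of 15 Fox, 7 of 7 Tbx, 6 of 6 Klf, 5 of 6 Sox and 2 of 2 Gata members were higher in GE. The luminal Sox genes included the SoxB factors Sox1 and Sox2 with the long noncoding Sox1ot and Sox2ot, the last spanning the Sox2 locus, and Sox7. Sox18, a SoxF factor of vascular and lymphatic endothelium that was chosen after its values were seen, was 33.4-fold higher in Ctrl-GE. Its values of 274, 264 and 398 stood beside summed endothelial and pericyte markers (10 of 12) of 6043, 5613 and 8637 there and 213, 393 and 254 in Ctrl-LE, and their part in the difference was not tested. Foxi3, a forkhead factor of ectodermal organs, was at 39.4, 17.4 and 10.1 in Ctrl-LE and at 0 in every GE library. It was at least 24.0-fold higher in LE in Ctrl and at least 9.70-fold in E-OEX, counting 3 reads over the group as the floor.

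Between genotypes, reads recovered from the scaled counts were rescaled together and tested with limma on log2(value + 1), with Benjamini-Hochberg adjustment over all genes and a threshold of 0.05. Log2 changes are given with their standard errors on that scale, which understates changes of low genes, and per-library values are the deposited ones. The 2 scales shifted the median of all genes by 0.17 (log2) in E-OEX-LE against Ctrl-LE, 0.46 in E-OEX-GE against Ctrl-GE, 0.02 in U-OEx-LE against Ctrl-LE and 0.13 in U-OEx-LE against E-OEX-LE. Only genes in both sets of tables can be compared, and comparisons with the same Ctrl libraries are not independent. Of the 84 members, 77 were tested at least once and 31 passed in at least 1 comparison. The share of all genes that passed in at least 1 comparison was not computed, so nothing is read from this count.

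Most of the members that changed did so in the lumen of U-OEx. Of 56 members tested against Ctrl-LE, 10 rose and 16 fell (17.9% and 28.6%), where 29.1% of all 5949 genes rose and 27.8% fell. The median log2 change of the members was -1.11 and that of all genes 0.09. Markers of cell types moved in the same comparison. Of 8 general epithelial markers tested, Cdh1, Cldn3, Cldn7, Epcam and Ovol1 fell and Elf3 rose, and the 4 in all tables summed to 60996, 51014 and 52055 in Ctrl-LE and 36721, 42788 and 30538 in U-OEx-LE. Of 4 immune markers, Adgre1, Laptm5 and Lyz2 rose (median log2 change 1.41), and the 1 in all tables was at 219, 278 and 221 in Ctrl-LE and 334, 293 and 462 in U-OEx-LE. Of 6 glandular markers, Cxcl15, Foxa2 and Lif rose and Spink1 fell, and of 8 luminal markers Ltf, Sprr2f and Wnt7b rose and Calb1, Lpar3 and Wnt7a fell. Their part in the members' changes was not tested. The risers were the forkhead genes Foxq1, Foxs1, Foxc1 and Foxa3, the homeobox genes Irx3, Six4, Msx2 and Meis1, the nuclear receptor Nr2f1 and Klf12. The genes that fell were the Sox group Sox5, Sox5os1, Sox1, Sox1ot and Sox2ot, the Klf genes Klf8, Klf9 and Klf15, the Hox genes Hoxa10, Hoxa11 and Hoxc6, the forkhead group Foxi3, Foxn3 and Foxl2os, and Gata2 and Pax2.

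**Figure D2:**
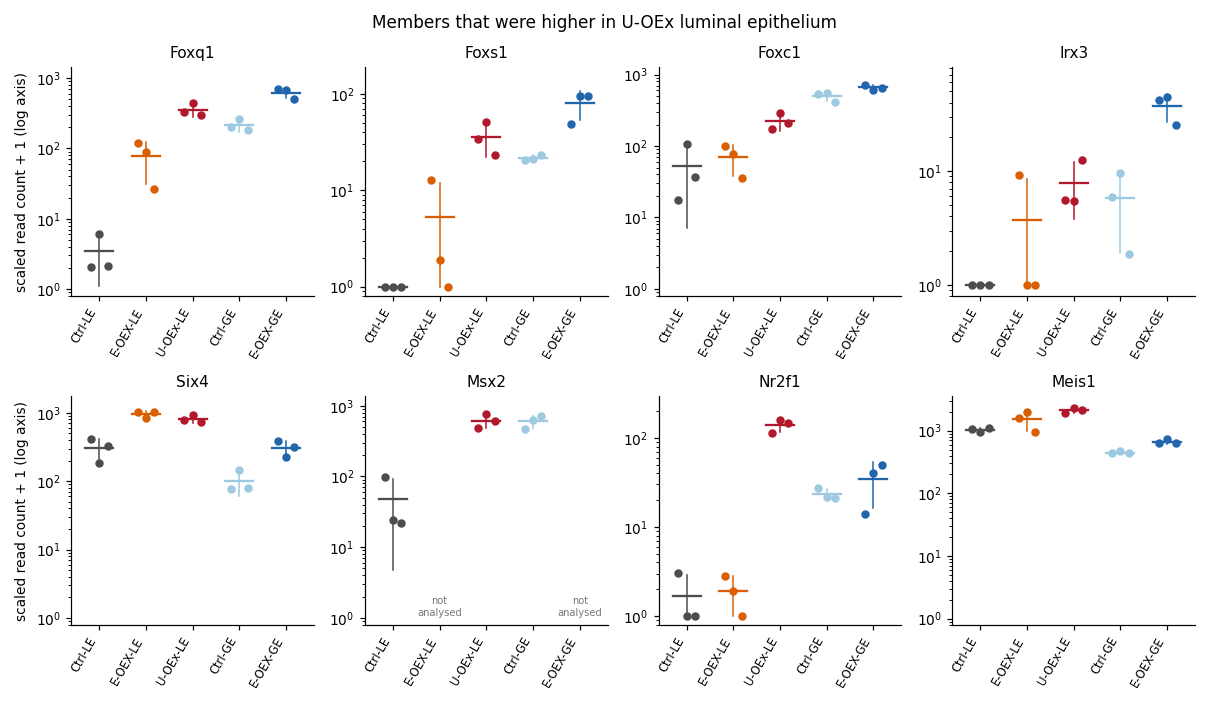
Scaled counts (log axis, value + 1) of 8 members that rose in U-OEx-LE, by group. Points are the 3 libraries, horizontal lines their means and vertical bars the SD, ending at 1 where it exceeds the mean. Foxq1 is at 5.12 or below in all Ctrl-LE libraries and at 299 or above in all U-OEx-LE libraries.

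Foxq1, a forkhead factor that acts in epithelia (ENSMUSG00000038415, chr13:31556134-31560976, plus strand, GRCm38), was almost absent from Ctrl-LE at 1.04, 5.12 and 1.12 scaled counts. It stood at 117, 87.2 and 25.9 in E-OEX-LE and 331, 436 and 299 in U-OEx-LE, so that every overexpressing luminal library lay above every Ctrl-LE library. The change was 6.88 ± 0.53 (adjusted p = 2.81e-05) in U-OEx-LE and 4.33 ± 0.80 (adjusted p = 0.0121) in E-OEX-LE. The glands held it already in the controls, at 199, 261 and 180.0, and at 699, 673 and 500.3 in E-OEX-GE, a change of 1.08 ± 0.28 (adjusted p = 0.0211). The U-OEx-LE values were also above those of E-OEX-LE, by 2.30 ± 0.55 (adjusted p = 0.0284). All U-OEx-LE libraries (mean 355 ± 72.0 SD, n = 3) lay above every Ctrl-GE and below every E-OEX-GE library, as the plot of the members that rose shows. That comparison was not tested. The glandular marker sums given above were also higher in both overexpressing lumens than in Ctrl-LE, and their part in the Foxq1 values was not tested.

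Foxs1, a forkhead gene of pericytes and neural crest derivatives (chr2:152931898-152933208, minus strand), had no read in any Ctrl-LE library. It reached 33.1, 49.8 and 22.1 in the U-OEx lumen, a rise of at least 32.4-fold (adjusted p = 0.000108). The E-OEX-LE libraries spread widely, at 11.9, 0.908 and 0, and U-OEx-LE was above them by 3.53 ± 0.92 (adjusted p = 0.0366). In the glands it rose from 19.5, 19.9 and 22.5 to 48.1, 95.4 and 93.7, by 1.37 ± 0.36 (adjusted p = 0.0223). The summed endothelial and pericyte markers were 305, 179 and 239 in U-OEx-LE against 213, 393 and 254 in Ctrl-LE, and 5476, 10001 and 17298 in E-OEX-GE against 6043, 5613 and 8637 in Ctrl-GE. Of 12 such markers tested in U-OEx-LE, 3 (Flt1, Pecam1 and Tek) rose and none fell, and of 10 in E-OEX-GE none passed. Their part in the Foxs1 values was not tested.

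The other forkhead risers were smaller. Foxc1, a factor of mesoderm and eye development, had luminal values of 16.6, 104 and 35.8 in Ctrl-LE, 97.7, 76.3 and 34.5 in E-OEX-LE and 170.0, 292 and 209 in U-OEx-LE. The last exceeded Ctrl-LE by 2.41 ± 0.59 (adjusted p = 0.00891) and E-OEX-LE by 1.63 ± 0.47 (adjusted p = 0.0487), a call that was lost in 9 of 15 alternatives. Foxa3, a paralog of the gland factor Foxa2, was at 0 in Ctrl-LE and at 3.68, 3.55 and 3.84 in the U-OEx lumen, a rise of at least 3.43-fold (adjusted p = 0.00467). Its U-OEx-LE values amount to 4 reads per library, and DESeq2 gave an adjusted p of 0.065.

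Nr2f1, the orphan nuclear receptor COUP-TFI (chr13:78188973-78199757, minus strand), set U-OEx-LE apart from the other luminal groups. It was at 2.07, 0 and 0 in Ctrl-LE, 1.83, 0.908 and 0 in E-OEX-LE and 112, 156 and 145 in U-OEx-LE. With 2 reads in Ctrl-LE and 3 in E-OEX-LE, U-OEx-LE was 192-fold higher (95% counting interval 52.9 to 1593) than Ctrl-LE, and 129.6-fold higher (95% counting interval 44.1 to 631) than E-OEX-LE. The adjusted p-values were 7.1e-05 and 0.00335. The glands had 26.3, 20.9 and 19.9 in Ctrl-GE and 13.0, 39.1 and 48.7 in E-OEX-GE, a change of -0.06 ± 0.48 (adjusted p = 0.953) that did not pass. U-OEx-LE was therefore the group with the highest Nr2f1 of all 5.

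Among homeobox genes, Irx3, an Iroquois patterning factor (chr8:91798525-91802067, minus strand), had no read in Ctrl-LE and was at 4.59, 4.44 and 11.5 in the U-OEx lumen, a rise of at least 6.37-fold (adjusted p = 0.00284), or 4.19-fold without U-OEx-LE library 3. It rose in the glands as well, from 4.87, 8.53 and 0.865 in Ctrl-GE to 41.1, 43.7 and 24.4 in E-OEX-GE, by 2.56 ± 0.65 (adjusted p = 0.0195). In E-OEX-LE its reads came from library 1 only, at 8.22, 0 and 0. Irx1, its relative, was compared only between the overexpressing lumens, where it was at 64.8, 5.45 and 0 in E-OEX-LE and 261, 439.9 and 251 in U-OEx-LE, a difference of 5.29 ± 1.25 (adjusted p = 0.0274).

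Six4, a homeobox factor of muscle, kidney and sensory development (chr12:73099609-73113456, minus strand), rose in the lumen of U-OEx and in the glands of E-OEX. It went from 410.2, 184 and 323 in Ctrl-LE to 779, 927 and 732 in U-OEx-LE (1.45 ± 0.36, adjusted p = 0.00892) and from 74.9, 143 and 78.7 in Ctrl-GE to 389, 225 and 312 in E-OEX-GE (1.20 ± 0.34, adjusted p = 0.0309). The E-OEX-LE values were 1039, 828 and 1012, all above Ctrl-LE, with a fitted change of 1.54 ± 0.47 (adjusted p = 0.066) that missed the threshold. Meis1, a TALE homeobox protein that binds DNA together with Hox proteins, rose in U-OEx-LE by 1.004 ± 0.21 (adjusted p = 0.00423), from 1059.7, 951 and 1094 to 1893, 2290.1 and 2153. Msx2, a homeobox factor that acts with Msx1 in uterine receptivity, was at 98.4, 23.6 and 21.2 in Ctrl-LE and 486, 754 and 608 in U-OEx-LE, a rise of 3.98 ± 0.61 (adjusted p = 0.000845) to about the level of Ctrl-GE (468, 629 and 705). Klf12, a repressor of decidual genes, rose by 1.51 ± 0.42 (adjusted p = 0.0152), from 12.4, 15.4 and 11.2 to 33.1, 42.7 and 42.3.

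**Figure D3:**
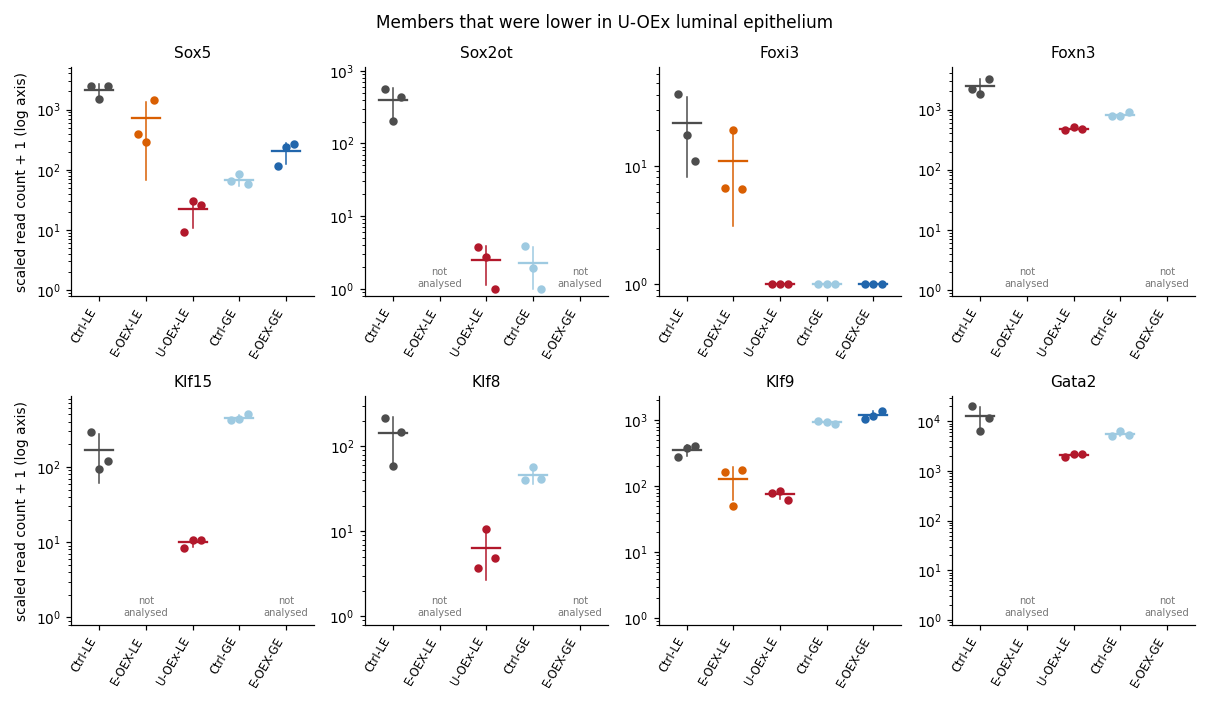
Scaled counts (log axis, value + 1) of 8 members that fell in U-OEx-LE, by group. Points are the 3 libraries, horizontal lines their means and vertical bars the SD (ending at 1 where it exceeds the mean), and groups whose tables do not hold a gene are marked as not analysed. Sox5 is at 1477 or above in all Ctrl-LE libraries and at 29.3 or below in all U-OEx-LE libraries.

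Sox5, which with Sox6 drives cartilage formation elsewhere (chr6:143828425-144781977, minus strand), was among the most abundant luminal members and lost nearly all of its reads in U-OEx-LE. Its values were 2473, 1477 and 2444 in Ctrl-LE, 399, 283 and 1452 in E-OEX-LE and 8.27, 29.3 and 25.0 in U-OEx-LE. Against Ctrl-LE the change in U-OEx-LE was -6.76 ± 0.49 (adjusted p = 2.23e-05), and against E-OEX-LE it was -4.96 ± 0.69 (adjusted p = 0.00592). E-OEX-LE library 3 lay close to the lowest control, and the fitted change in E-OEX-LE was -2.09 ± 0.62 (adjusted p = 0.0619). In the glands the direction was the opposite, with a rise from 63.3, 83.4 and 56.2 to 115, 233 and 263 (1.05 ± 0.34, adjusted p = 0.0486). Sox5os1, at 1.04, 2.05 and 11.2 in Ctrl-LE and 0 in U-OEx-LE (at least 5.07-fold lower, adjusted p = 0.0362), lost its call without any 1 of the U-OEx-LE libraries (0.0897 to 0.0953), and its bound was 1.69 without Ctrl-LE library 3. It shares 1330 of its 1585 exon bases with Sox5 on the opposite strand. The library kit named in the labels does not mark strand, so reads of the pair cannot be told apart.

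Sox2ot and Sox1ot, long noncoding RNAs at the loci of the neural SoxB factors, fell to traces. Sox2ot (chr3:34104270-34682619, plus strand) was at 551, 199.7 and 437 in Ctrl-LE and 2.76, 1.78 and 0 in U-OEx-LE, a change of -7.41 ± 0.66 (adjusted p = 6.02e-05). Sox1ot was at 341, 12.3 and 42.5 in Ctrl-LE and at 0 in all 3 U-OEx-LE libraries, at least 156-fold lower (adjusted p = 0.00246), or at least 28.9-fold without Ctrl-LE library 1. Sox1 was low throughout, at 5.18, 2.05 and 3.35 in Ctrl-LE, and at 0 in U-OEx-LE, at least 3.98-fold lower (adjusted p = 0.00955). Sox2, chosen after its values were seen, did not pass: its values were 12.4, 7.17 and 33.5 in Ctrl-LE and 0.919, 39.1 and 1.92 in U-OEx-LE, overlapping through U-OEx-LE library 2 (adjusted p = 0.328). Sox7, a SoxF factor of endothelium with the highest mean of the Sox members over the libraries each was measured in (for Sox7, those of Ctrl and U-OEx), was at 804, 2615 and 1528 in Ctrl-LE and 1409.7, 1488 and 1541 in U-OEx-LE, with a fitted change of -0.02 ± 0.36 (adjusted p = 0.965). Of 10 Sox members tested there, 5 fell and none rose, where 27.8% of all genes fell and 29.1% rose.

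Gata2, the zinc-finger factor that works with the progesterone receptor in uterine epithelium (chr6:88193891-88207032, plus strand), was one of the most abundant members of the control lumen, at 20184, 6334 and 11689.6 scaled counts. In U-OEx-LE it was at 1937, 2202 and 2198, a change of -2.46 ± 0.42 (adjusted p = 0.00155). That is also below the 5156, 6271 and 5351 of Ctrl-GE, a comparison that was not tested. Of the 3 Klf genes that fell, Klf9, a partner of the progesterone receptor, went from 272, 382 and 400.1 to 79.0, 82.6 and 61.5 (-2.24 ± 0.29, adjusted p = 0.000338), with E-OEX-LE at 162, 49.95 and 173 (-1.79 ± 0.55, adjusted p = 0.0661, which did not pass). Klf15, which restrains epithelial growth in response to progesterone, went from 290.0, 93.2 and 119.6 to 7.35, 9.78 and 9.60 (-3.94 ± 0.54, adjusted p = 0.00049). Klf8 went from 218, 58.4 and 149 to 2.76, 9.78 and 3.84 (-4.45 ± 0.66, adjusted p = 0.000742).

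Foxn3, a forkhead repressor listed in Ctrl and U-OEx only, changed by -2.32 ± 0.27 (adjusted p = 0.000192), from 2222, 1798 and 3232 in Ctrl-LE to 456, 514 and 466 in U-OEx-LE. Foxi3 lost all its reads in U-OEx-LE, at least 25.4-fold below Ctrl-LE (adjusted p = 0.000664) and at least 12.5-fold below the 5.48, 19.1 and 5.40 of E-OEX-LE (adjusted p = 0.0173). The first bound was 14.4 without Ctrl-LE library 1, and the second 6.15 without E-OEX-LE library 2. Pax2, a paired-box factor of the Müllerian duct, had a small change of -0.67 ± 0.22 (adjusted p = 0.03), from 4055, 3299.9 and 3777 to 2132, 2718 and 2256. This call was lost when Ctrl-LE library 1 or 3 or U-OEx-LE library 1 or 3 was left out, with adjusted p-values of 0.0596, 0.0795, 0.117 and 0.0929. Of the 26 members called in U-OEx-LE, 21 were called under every alternative that could be run. The others were Foxa3, Foxl2os, Hoxc6, Pax2 and Sox5os1. Without Ctrl-LE library 1, 35 members were called, 10 higher and 25 lower.

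**Figure D4:**
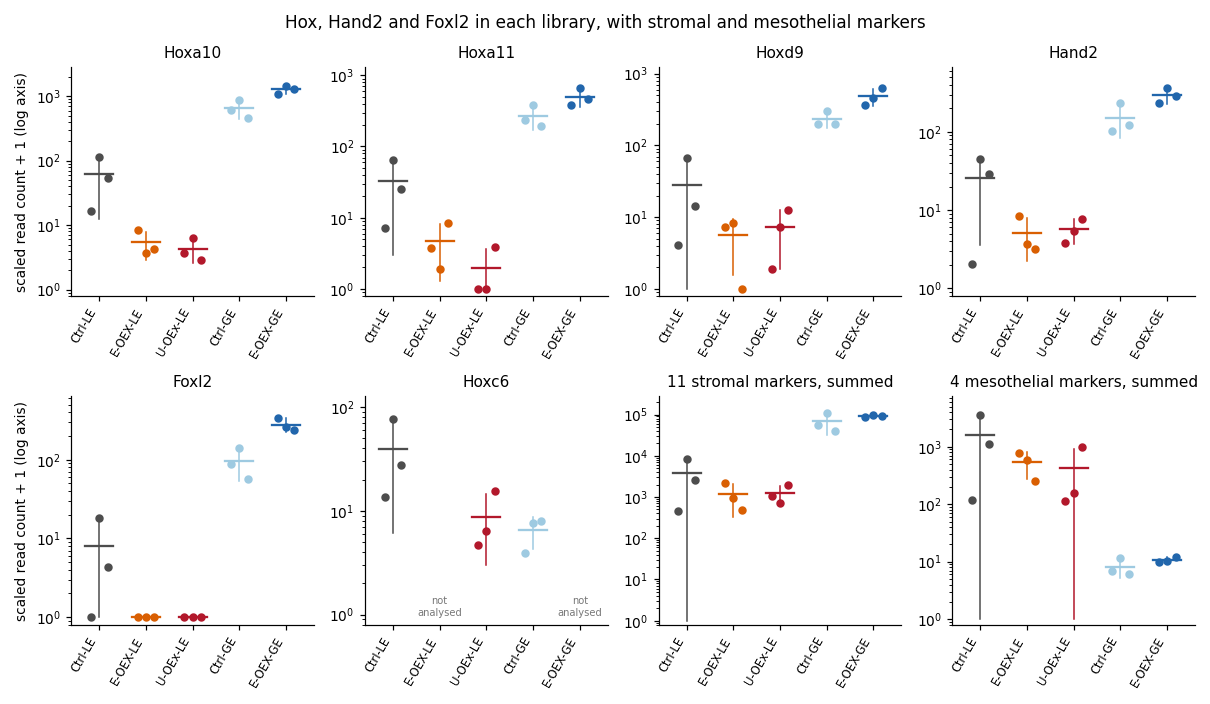
Scaled counts (log axis, value + 1) of 4 Hox members, Hand2 and Foxl2 by group, beside the summed stromal markers (11, without Postn) and the summed mesothelial markers (4). Points are the 3 libraries from left to right, horizontal lines their means and vertical bars the SD, ending at 1 where it exceeds the mean, and Ctrl-LE library 2 is the highest of its group in every panel.

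The Hox genes had few reads in the lumen, and Hoxa10 fell in both overexpressing groups. Hoxa10 (ENSMUSG00000000938, chr6:52231197-52240854, minus strand) was at 15.5, 114 and 53.6 in Ctrl-LE, 7.30, 2.72 and 3.24 in E-OEX-LE and 2.76, 5.33 and 1.92 in U-OEx-LE, with no overlap between Ctrl-LE and either other group. It changed by -3.36 ± 0.81 (adjusted p = 0.0289) in E-OEX-LE and -3.54 ± 0.72 (adjusted p = 0.00376) in U-OEx-LE. Hoxa11, its neighbour (chr6:52242106-52245810, minus strand), was at 6.22, 64.5 and 24.6 in Ctrl-LE, 2.74, 0.908 and 7.56 in E-OEX-LE and 0, 0 and 2.88 in U-OEx-LE. With 3 reads in U-OEx-LE it was 35.4-fold lower (95% counting interval 11.7 to 175) there (adjusted p = 0.00663), and in E-OEX-LE its fitted change was -2.68 ± 0.93 (adjusted p = 0.0988). Hoxa11os, at 1.04, 24.6 and 4.47 in Ctrl-LE, shares 800 of its 3073 exon bases with Hoxa11.

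The other genes of the HoxA and HoxD clusters were also highest in library 2 of Ctrl-LE. Hoxa9 was at 0, 41.0 and 14.5 in Ctrl-LE against 3.68, 0.889 and 10.6 in U-OEx-LE, and Hoxa7 at 3.11, 12.3 and 5.59 against 0, 0 and 7.68. Hoxd8 was at 1.04, 50.2 and 14.5 against 4.59, 5.33 and 11.5, and Hoxd9 at 3.11, 65.5 and 13.4 against 0.919, 6.22 and 11.5. Hoxd10 was at 8.29, 39.9 and 6.71 against 2.76, 5.33 and 3.84, and Hoxd11 at 0, 26.6 and 13.4 against 0.919, 5.33 and 1.92. None of these 6 passed in either luminal comparison with Ctrl. All 12 Hox members tested in U-OEx-LE had a fitted change below 0 (median -1.57), 3 of them called, and all 9 tested in E-OEX-LE did (median -2.21), 1 of them called. Of all genes, 27.8% fell past the threshold in U-OEx-LE and 5.54% in E-OEX-LE, and 51.3% and 47.7% had a fitted change above 0.

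Of the HoxC genes, Hoxc6, Hoxc4 and Hoxc8 had a higher mean in the control lumen than in the control glands, but only Hoxc6 did not overlap between them. Hoxc6 (chr15:102998257-103011881, plus strand) was at 12.4, 75.8 and 26.8 in Ctrl-LE and 2.92, 6.64 and 6.92 in Ctrl-GE, Hoxc4 at 0, 27.7 and 10.1 against 0.973, 2.84 and 0.865, and Hoxc8 at 0, 24.6 and 11.2 against 0 in all 3. In U-OEx-LE Hoxc6 was at 3.68, 5.33 and 14.4, overlapping the controls, with a change of -2.01 ± 0.74 (adjusted p = 0.0461). That call was lost in 6 of 14 alternatives, among them those without Ctrl-LE library 2 (adjusted p = 0.124) or 3 (0.101) or U-OEx-LE library 1 (0.178) or 2 (0.142).

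Ctrl-LE library 2 was the highest of its group for 12 of 12 Hox members, for 30 of 58 members (51.7%) and for 42.3% of all 5712 genes listed with a mean of at least 1. The marker sums moved with it, as the plot of Hox genes shows. Stromal markers without Postn were at 453, 8195 and 2651 in the 3 Ctrl-LE libraries and mesothelial markers (Lrrn4, Msln, Upk1b and Upk3b, 4 of 6) at 117, 3565 and 1099.8. The mesothelial sum was 770.4, 585 and 255 in E-OEX-LE, 111, 158 and 1006 in U-OEx-LE and 5.84, 10.4 and 5.19 in Ctrl-GE, and Mfap4 was the stromal marker at 0 in all E-OEX-LE and U-OEx-LE libraries. Of the stromal markers tested, Postn rose in E-OEX-LE (1 of 12) and in U-OEx-LE, where Mfap4 fell (2 of 12), and no mesothelial marker passed in any comparison. The part of stromal or mesothelial RNA in the Hox values was not tested. In U-OEx-LE, Hoxa10 passed under every alternative, with log2 changes of -4.26 to -2.93 and a highest adjusted p of 0.0258. In E-OEX-LE its log2 change was -2.79 without Ctrl-LE library 2 and the call was lost (adjusted p = 0.0821). That call was also lost without Ctrl-LE library 3 (0.139) or any 1 of the E-OEX-LE libraries (0.0595 to 0.109), and with no filter (0.0796).

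Foxl2 and Hand2 varied among the control lumens in the same way. Foxl2 (chr9:98955288-98958543, plus strand) was at 0, 17.4 and 3.35 in Ctrl-LE and without a read in E-OEX-LE and U-OEx-LE, and neither fitted change passed (adjusted p = 0.217 and 0.0992). Foxl2os, transcribed away from Foxl2 on the other strand with 12 shared exon bases, was at 1.04, 5.12 and 2.24 in Ctrl-LE and 0 in U-OEx-LE, at least 2.99-fold lower (adjusted p = 0.0264). That call was lost without Ctrl-LE library 3 (0.0633) or any 1 of the U-OEx-LE libraries (0.0633 to 0.0689), and the bound was 1.81 without Ctrl-LE library 2. Hand2 (chr8:57320983-57324633, plus strand) was at 1.04, 44.0 and 27.9 in Ctrl-LE, 7.30, 2.72 and 2.16 in E-OEX-LE and 2.76, 4.44 and 6.72 in U-OEx-LE (adjusted p = 0.362 and 0.31). Tbx3 was at 0, 32.8 and 7.82 in Ctrl-LE, 3.65, 0.908 and 0 in E-OEX-LE and 1.84, 0.889 and 0.960 in U-OEx-LE (adjusted p = 0.384 and 0.267). Tbx2, a T-box repressor of the cell cycle inhibitors (chr11:85832551-85841948, plus strand), overlapped across the lumens, at 36.3, 16.4 and 25.7 in Ctrl-LE, 34.7, 32.7 and 39.9 in E-OEX-LE and 32.2, 51.5 and 39.4 in U-OEx-LE, and did not pass in either comparison (adjusted p = 0.765 and 0.272).

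In the lumen of E-OEX few members passed. Of 30 tested against Ctrl-LE (6 of the 36 listed were under the filter of a mean of 1), Foxq1 rose and Hoxa10 fell, 3.33% in each direction, where 5.12% of all 2600 genes rose and 5.54% fell. The members' median log2 change was -1.60, against -0.09 for all genes, with 9 above and 21 below 0. On the deposited scale 58.6% of all called genes were higher, against 48% here. No member passed without Ctrl-LE library 3, E-OEX-LE library 1 or E-OEX-LE library 2, 1 passed without Ctrl-LE library 2, where the median was -0.63, and 9 passed without Ctrl-LE library 1.

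In the glands the members that changed all rose. Of 35 tested in E-OEX-GE against Ctrl-GE, 7 rose (20%) and none fell, where 9.72% of all 2851 genes rose and 13.8% fell. Besides Foxq1, Foxs1, Irx3, Six4 and Sox5, these were Tbx3, which went from 189, 373 and 192 to 523, 982 and 717 (1.12 ± 0.33, adjusted p = 0.0342), and Foxl2, which went from 87.6, 139 and 56.2 to 339.5, 261 and 234 (1.17 ± 0.37, adjusted p = 0.0462). At an unadjusted p under 0.05, 9 members passed in either direction. The share of higher calls among all genes was 41.3% here and 71.6% on the deposited scale, where 11 members rose and none fell. The count was 1 without Ctrl-GE library 1, Ctrl-GE library 3 or E-OEX-GE library 2, and 2 without E-OEX-GE library 3. In 1 fit over all 5 groups, 1 member passed, and none of the 7 passed under every alternative.

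The Hox genes stood high in both glandular groups. Hoxa10 was at 614, 866 and 454 in Ctrl-GE against 1094, 1445 and 1291 in E-OEX-GE (0.56 ± 0.27, adjusted p = 0.168), and Hoxa9 at 155, 249 and 178 against 403, 485 and 422 (0.73 ± 0.26, adjusted p = 0.0756). Hoxa11 was at 234, 382 and 191 against 382, 663 and 461, Hoxd10 at 170.3, 252 and 124 against 246, 370.2 and 459, and Hoxd9 at 198, 301 and 199 against 371, 455 and 630.5. All 9 Hox members tested had a fitted change above 0 (0.13 to 0.73) and none passed, where 52.5% of all genes were above 0. Hand2 was at 101.2, 230.3 and 121 against 231, 366 and 289 (adjusted p = 0.268), Tbx2 at 93.4, 147 and 149 against 122, 305 and 449 (adjusted p = 0.401), and Lhx6, a LIM homeobox factor, at 59.4, 55.0 and 70.1 against 34.1, 110.4 and 139 (adjusted p = 0.944).

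Muscle markers moved with these glandular values. Of 8 smooth muscle markers tested, 7 (Acta2, Actg2, Cnn1, Lmod1, Myh11, Myocd and Smtn) rose in E-OEX-GE, with a median log2 change of 1.68 over the 8, and their sum was 19938, 17306 and 15634 against 3124, 5441 and 5398 in Ctrl-GE. None of 12 stromal markers passed, while 5 of 6 glandular markers (Calca, Cxcl15, Lif, Spink1 and Ttr) fell. The part of muscle or stromal RNA in the rises of Tbx3, Foxl2 and Foxs1 was not tested. A further 8 Hox genes were in the E-OEX tables and not in those of Ctrl, all with more reads in GE. Hoxa5 was at 54.1, 58.6 and 88.1 in E-OEX-GE and 0.913, 9.08 and 0 in E-OEX-LE, Hoxc11 at 21.03, 39.1 and 21.5 against 0 in all 3, and Hoxa3 at 26.0, 19.5 and 35.6 against 9.13, 10.9 and 8.63. Hoxa2, Hoxa6, Hoxd1, Hoxd3 and Hoxd4 were at 35.6 or below in every E-OEX-GE library and at 3.24 or below in E-OEX-LE. Klf6, an early response factor listed in E-OEX and U-OEx only, was at 8899, 15886 and 13429 in E-OEX-GE, 1691, 1003 and 842 in E-OEX-LE and 1219, 1015 and 2095 in U-OEx-LE.

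**Figure D5:**
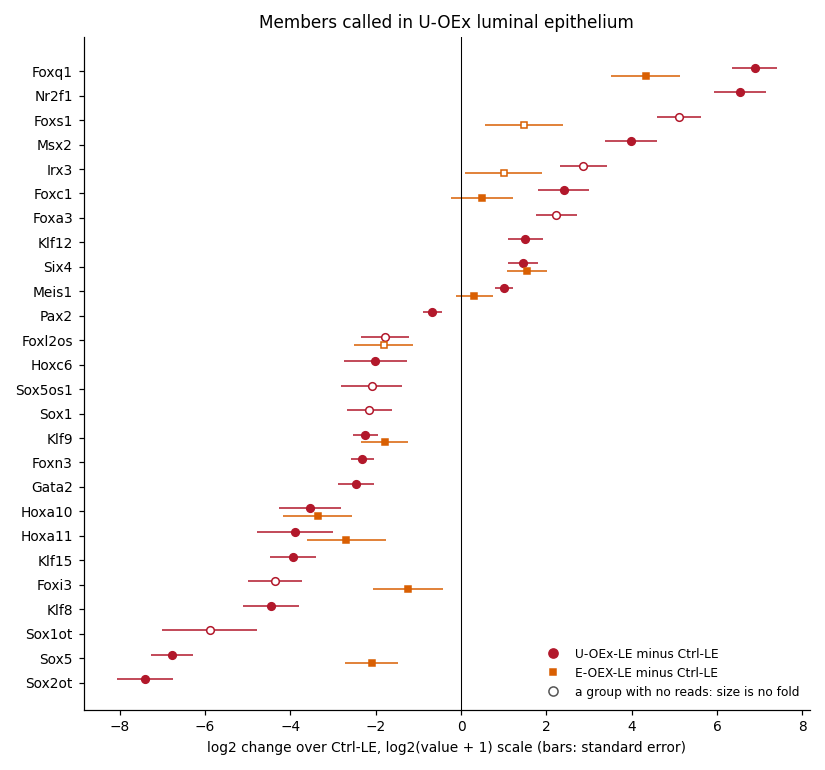
Fitted log2 changes over Ctrl-LE (x axis) of the 26 members called in U-OEx-LE, for U-OEx-LE (circles) and, where the gene was also tested there, E-OEX-LE (squares). Bars are standard errors and open symbols mark a comparison with a group without reads, whose size is no fold. Foxq1 lies farthest above 0 and Sox2ot farthest below, and the 2 comparisons share the Ctrl-LE libraries.

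The plot of fitted changes sets both luminal comparisons side by side, and they share the Ctrl-LE libraries. Between E-OEX-GE against Ctrl-GE and U-OEx-LE against Ctrl-LE, which share no libraries, 34 members were tested in both. Foxq1, Foxs1, Irx3 and Six4 rose in both, and Sox5 rose in the former and fell in the latter. Of all genes, 9.72% rose in the former and 29.1% in the latter. The share that rose in both was not computed, so nothing is read from this overlap. The lumens of U-OEx and E-OEX were compared directly for 50 of 59 listed members. Of these 6 rose (Foxc1, Foxq1, Foxs1, Irx1, Nr2f1 and Sox8) and 2 fell (Foxi3 and Sox5), 12% and 4%, where 6.97% of all 4275 genes rose and 8.05% fell. Sox8, a SoxE factor, was at 11.9, 0.908 and 0 in E-OEX-LE and 32.2, 29.3 and 45.1 in U-OEx-LE (3.60 ± 0.90, adjusted p = 0.0315). Nr2f1 and Sox5 passed under every alternative. The calls of Foxs1 and Sox8 were each lost in 8 alternatives, that of Irx1 in 7, Foxq1 in 4 and Foxi3 in 2. The count was 2 without U-OEx-LE library 1 or 3, 3 without library 2, 4 without E-OEX-LE library 2 and 5 without E-OEX-LE library 3. Hoxa10 did not differ past the threshold between these lumens (adjusted p = 0.692).

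Whether the overexpression changed gland and lumen unequally was tested with an interaction over the 4 Ctrl and E-OEX groups, on the deposited values. Only genes that differed at least 2-fold between GE and LE in both genotypes entered it. The 22 members listed in Ctrl and not E-OEX and the 26 listed in E-OEX and not Ctrl could not be tested. Of 36 members, 4 had a change more positive in GE and 1 more positive in LE (11.1% and 2.78%), where 5.83% and 4.91% of all 2933 genes did. Hoxa10 led, with a difference of 4.23 ± 0.86 (adjusted p = 0.00779), followed by Sox5 (3.43 ± 0.77, adjusted p = 0.0141), Foxl2os (3.17 ± 0.74, adjusted p = 0.0157) and Hoxd10 (3.04 ± 0.88, adjusted p = 0.0427). Foxl2os went from 52.6, 88.2 and 64.9 to 258, 148 and 145 in the glands and from 1.04, 5.12 and 2.24 to 0 in the lumen. Foxq1 went the other way, with -2.91 ± 0.83 (adjusted p = 0.042). All 9 Hox members were above 0, as were 61% of all genes. The Hox median was 3.06, against 1.70 for all members and 0.33 for all genes. Markers of other cell types lay on the same side, with 7 of 8 smooth muscle markers (median 3.16, 4 called), 10 of 10 endothelial and pericyte markers (median 2.19, 1 called) and 11 of 12 stromal markers (median 1.52, 1 called) above 0, and their part in the Hox values was not tested. The 6 glandular markers tested lay on the side of Foxq1, all below 0 (median -3.86). Of these, 4 (Cxcl15, Foxa2, Lif and Ttr) were called, and their part in the Foxq1 value was not tested. With the 4 groups rescaled together, 43.9% of all called genes were positive, against 54.3% here. Hoxa10 and Sox5 passed under all 20 alternatives. The member count was 15 without Ctrl-LE library 1 and 2 without Ctrl-GE library 1. It was 3 without Ctrl-GE library 2 or 3, E-OEX-LE library 2 or any 1 of the E-OEX-GE libraries.

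Genes around these factors were read from lists. In uterine signalling, Indian hedgehog from the epithelium acts on stromal COUP-TFII, and stromal Hand2 limits fibroblast growth factors that act on epithelial receptors. In U-OEx-LE, 4 of 15 tested genes of this pathway rose (Fgfr1, Fgfr3, Gli3 and Wnt4) and 5 fell (Fgf1, Fgf18, Fgfr2, Gli1 and Pgr), 26.7% and 33.3%, close to the 29.1% and 27.8% of all genes. Fgfr2, the receptor of epithelial FGF signalling, changed by -4.92 ± 0.32 (adjusted p = 1.62e-05), and Wnt4 by 3.75 ± 0.59 (adjusted p = 0.00095). In E-OEX-LE 1 of 11 rose (Wnt4) and 1 fell (Fgfr2), and in E-OEX-GE 2 of 14 rose (Bmp2 and Fgfr3) and 2 fell (Fgfr2 and Wnt4). Between the overexpressing lumens, 3 of 13 (Fgf18, Fgfr2 and Gli1) were lower in U-OEx-LE, and the shares of all genes in these comparisons are given above. The list's median log2 change was -0.66 in U-OEx-LE, -0.37 in E-OEX-LE and 0.09 in E-OEX-GE.

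Partners of Hox proteins on DNA were tested mainly in U-OEx-LE, where Pbx3 and Tgif2 rose and Pbx4 and Pknox2 fell, 4 of 4 tested, where 29.1% of all genes rose and 27.8% fell. Among 26 other developmental regulators, 7 of 18 tested rose in U-OEx-LE (Id1, Id3, Lef1, Prrx2, Runx1, Tcf7 and Zeb2) and Twist2 fell, 38.9% and 5.56%, against the same shares of all genes. In E-OEX-GE 5 of 15 (33.3%) rose (Egr1, Elf5, Id1, Id4 and Osr2) and none fell, where 9.72% of all genes rose and 13.8% fell, and in E-OEX-LE 1 of 15 rose (Id1). Id1, an inhibitor of basic helix-loop-helix factors such as Hand2, changed by 3.04 ± 0.44 (adjusted p = 0.0043) in E-OEX-LE, 2.62 ± 0.26 (adjusted p = 0.000144) in E-OEX-GE and 2.71 ± 0.32 (adjusted p = 0.000218) in U-OEx-LE. The median log2 change of these regulators was -1.05, 0.70 and 0.43 in that order.

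The remaining 46 tested members passed in no comparison, and the share of all genes that did so was not computed. Among them Klf5, which is needed in the luminal epithelium for implantation, was at 3157, 2537 and 3515 in Ctrl-LE and 2326, 2090.1 and 1851 in U-OEx-LE (adjusted p = 0.0635), chosen after its values were seen. The 7 members tested in none, Hoxc11, Hoxd1, Hoxd3, Hoxd4, Lhx4, Tbx18 and Tbx22, had no partner table or were under the filter.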

How the data were processed

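RNA sequencing of 15 mouse libraries in 5 groups of 3 was analysed. The deposited signal values are read counts that the authors divided by 1 factor per library: all were whole multiples of the value of 1 read within 0.01 of a read. The genome builds GRCm38 and mm10 are named in the submitters' processing notes, and the aligner, counter, annotation and scaling are not given in the sources used here. The tables of Ctrl (6414 genes), E-OEX (4903) and U-OEx (27946) were treated as scaled separately. A gene that a table does not list was not analysed there.

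Between genotypes, recovered reads of shared genes were rescaled together (TMM, edgeR 4.0.16) and genes with a mean of at least 1 were fitted with limma 3.58.1 (R 4.3.3) on log2(value + 1), two-sided, with Benjamini-Hochberg adjustment over all genes. The interaction was fitted on the deposited values. Where a group had no read, a fold is a lower bound against 3 reads over the group, and groups with 1 to 3 reads have an exact 95% interval, which covers counting error only. Loci are from GENCODE M21 (83 of 84 members matched) and promoters from RefSeq. Alternatives were other pseudocounts, filters, scalings and tests (edgeR, DESeq2 1.42.0), a replicate block and leaving out each library. The fits were also run on simulated reads with a fixed spread, in which only genes that were not low were changed. That run cannot show how the fits perform for members with few reads or for noisier libraries.

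The text names all members that passed a test, all Hox members, Foxl2, Tbx2, Hand2 and the highest member of each other family, and says where another was chosen after its values were seen. The members and the lists of genes were chosen with earlier results of these data known. Protein sequences were not used here.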

Additional observations from a re-analysis of the deposited data

Results flagged for a closer look

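The effect of Notch1 overexpression differed between gland and lumen, by the interaction fitted with limma over all genes listed in both genotypes, for 5 of 36 members. The change was more positive in GE for 4 (11.1%) and in LE for 1 (2.78%), where 5.83% and 4.91% of all 2933 genes did so. Members listed in 1 genotype only could not enter. The values are the E-OEX effect in GE minus that in LE (log2). Hoxa10 had a difference of 4.23 (SE 0.86, adjusted p = 0.00779), being higher than the matching control in the mean of E-OEX-GE and lower in all 3 libraries of E-OEX-LE. Sox5 had 3.43 (adjusted p = 0.0141), with values above all controls in 3 of 3 E-OEX-GE libraries and below all controls in 3 of 3 E-OEX-LE libraries. Foxl2os had 3.17 (adjusted p = 0.0157), which became 0.0532 without Ctrl-GE library 1. Hoxd10 had 3.04 (adjusted p = 0.0427), which passed in 8 of 20 alternatives. Foxq1 had -2.91 (adjusted p = 0.042), with a larger effect in LE, and passed in 9 of 20. On the same measure, smooth muscle, endothelial and pericyte, and stromal markers had medians of 3.16, 2.19 and 1.52. Glandular markers had a median of -3.86, and the part of any of these markers in the members' differences was not tested.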

How the results depend on the processing

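Of 160 counts recomputed under alternatives, 100 stayed within 1.5 times of the reported ones, and no member that passed changed direction. In E-OEX-LE against Ctrl-LE, 2 members and 277 genes were called. These became 0 and 105 with no filter, 8 and 453 with DESeq2, and 11 and 616 in 1 fit over all 5 groups, and ranged from 0 to 9 and from 56 to 322 when 1 library was left out. In E-OEX-GE against Ctrl-GE, 7 members and 670 genes were called. The members were 3 with no filter, 11 on the deposited scale and 1 in the fit over all 5 groups, where 285 genes were called, and 1 to 6 members and 362 to 728 genes passed with 1 library left out. In U-OEx-LE against Ctrl-LE, 26 members and 3384 genes became 16 and 1274 in the fit over all 5 groups, in which 35 members were tested in place of 56, and 22 to 35 and 2757 to 3439 with 1 library left out. In U-OEx-LE against E-OEX-LE, 8 members and 642 genes were called. The members were 5 with a pseudocount of 0.1, 4 with no filter (286 genes) and 4 with edgeR, and 2 to 12 members and 60 to 904 genes passed with 1 library left out. In the interaction, 5 members and 315 genes were called. The members were 8 with a filter of 10, 8 with edgeR, 17 with DESeq2 (501 genes) and 3 with TMM over the 4 groups, and 2 to 15 members and 179 to 449 genes passed with 1 library left out. The cause of these moves was not tested. With replicate numbers as a block, 3, 7, 25, 7 and 6 members passed in the order above. In no comparison did the deviations of same-numbered libraries correlate above 0.1 in all 3 pairs. These correlations cannot show whether such libraries shared an animal, which the sources used here do not say. Few reads of a member in a lumen widen the error of its change, and the genes that the Ctrl and E-OEX tables hold limit which members could be compared.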
